A study of Mus musculus with 4 samples.

Results

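The 35 genes described here are interferon-stimulated antiviral genes, taken by name from the 31053 genes counted in donor T cells of mice with graft-versus-host disease (GVHD), in which T cells of a transplant donor attack the recipient. All 35 were found in the files. BALB/c recipients were irradiated with 900 cGy and given T cell-depleted bone marrow from C57BL/6 mice carrying both CD45 alleles, CD45.1 and CD45.2, together with regulatory T (Treg) cells sorted as CD4+ Foxp3-GFP+ CD25hi from the spleens of CD45.2+ C57BL/6 donors. The Treg donors had 1 of 4 genotypes: CD226+/+ TIGIT+/+ (wild-type), CD226-/- TIGIT+/+ (CD226-knockout), CD226+/+ TIGIT-/- (TIGIT-knockout) or CD226-/- TIGIT-/- (double-knockout), CD226 and TIGIT being an activating and an inhibitory receptor that share ligands. After 2 days every recipient received CD4+ and CD8+ conventional T cells from CD45.1+ wild-type C57BL/6 mice, and after 8 days of disease donor T cells, marked by H-2Kb and TCRb, were sorted from the spleen. The labels say that donor T cells of 3 were pooled per library, without saying of 3 what, and there was 1 library per genotype, so n = 4 libraries in every comparison of cell classes, and genotypes have no replicates. Ages and the location of the deleted parts of the 2 receptor genes were not given in the sources used here.

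Interferons are secreted proteins that bind receptors on the cell surface and, through the kinases Jak1, Jak2 and Tyk2, activate transcription factors of the STAT family. Type I interferon acts mainly through a complex of STAT proteins with Irf9 that binds the interferon-stimulated response element in target promoters, whereas interferon-gamma acts mainly through the gamma-activated element, and many targets answer to both. Their products sense viral RNA, block its translation, degrade it, or hold budding virus at the membrane, and several feed back on interferon signalling itself.

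Origin was read from barcoded antibodies to CD45.1 and CD45.2 on each cell. Cells with more CD45.2 (log2 of the CD45.1 over CD45.2 antibody counts, each plus 1, below -0.6) are called Treg-origin, and cells with more CD45.1 (above 2.2) conventional, split into CD4 and CD8 by RNA. Cells between these limits are called both-antibody cells, which can hold progeny of the CD45.1+ CD45.2+ marrow as well as doublets. The libraries gave 332 to 462 Treg-origin, 2750 to 3100 conventional CD4, 2098 to 3415 conventional CD8 and 434 to 1144 both-antibody cells. A unique molecular identifier (UMI) counts 1 captured RNA molecule. The median Treg-origin cell had 3922 to 5372 UMIs and the median conventional CD4 cell 7040 to 9013. Levels (CPM) are a gene's UMIs per 1000000 UMIs of a class in a library, and libraries shared 131 cell barcodes. Values by library are given first for wild-type, then for CD226-knockout, then for TIGIT-knockout and last for double-knockout.

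The labels of origin were set against marker RNA. Foxp3, the defining transcription factor of Treg cells, averaged 56.0 CPM in Treg-origin and 1.61 CPM in conventional CD4 cells, and the 8 Treg markers together reached 2496 to 2696 CPM against 597 to 734 CPM. A Foxp3 UMI was caught in 16.9% to 26.5% of Treg-origin cells. Xist, the RNA of the silenced X chromosome of female cells, averaged 714 CPM in Treg-origin and 0.686 CPM in conventional CD4 cells, so the donors of the classes differed in sex as well as in CD45 allele, day of transfer and sorting, and these cannot be told apart from cell class below. Cd226 RNA in Treg-origin cells was 31.2 and 32.5 CPM in the wild-type and TIGIT-knockout libraries and 4.01 and 4.39 CPM in the CD226-knockout and double-knockout libraries. Tigit RNA was 9.11, 5.15, 8.60 and 5.86 CPM by library (21, 9, 18 and 12 UMIs), so these 3' tags do not check the TIGIT genotype, which rests on the labels throughout.

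Promoters were read first, to show the element through which interferon acts. Of the 35 genes, 27 had an entry in the RefSeq promoter table (GRCm38.p6, 250 bases before to 50 after a gene's start), and 14 of these (51.9%) held the core letters of the interferon-stimulated response element, GAAANNGAAA, on either strand. The same core stood in 3.99% of the 27025 genes in that table. The gamma-activated letters TTCNNNGAA stood in 6 of the 27 (22.2%) and in 9.55% of all genes. Usp18, Mx1, Rtp4, Zbp1, Ifi27l2a, Dhx58, Parp9 and Parp14 were not in the table. Oasl1, Irf7 and Isg20, also given by library below, were in the table without the core. Stretches around the core are shown for 6 of the genes given by library below that held it. Each is 5′ to 3′ on the strand of its gene, with the core or its reverse complement in capitals, and overlapping cores form 1 longer run.
Oas1a, chr5:120907510-120907565, minus strand: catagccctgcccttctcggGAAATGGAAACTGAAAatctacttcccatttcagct
Ifit1, chr19:34640765-34640833, plus strand: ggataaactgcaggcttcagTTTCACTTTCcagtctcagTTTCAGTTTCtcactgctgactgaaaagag
Ifit3, chr19:34583353-34583436, plus strand: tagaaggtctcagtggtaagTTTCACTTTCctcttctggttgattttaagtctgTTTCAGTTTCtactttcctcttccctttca
Isg15, chr4:156200855-156200916, minus strand: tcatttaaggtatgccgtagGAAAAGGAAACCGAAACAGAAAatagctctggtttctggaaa
Rsad2, chr12:26456543-26456592, minus strand: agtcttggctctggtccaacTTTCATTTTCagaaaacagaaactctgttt
Ifih1, chr2:62646206-62646233, minus strand: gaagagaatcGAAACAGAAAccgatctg
Isg15 held 3 overlapping cores, Oas1a 2 overlapping cores, and Ifit1 and Ifit3 2 separate ones, all before the start given by the promoter entry. The gene coordinates used here begin at 34583119 for Ifit3 and reach 120907544 for Oas1a, so cores of both genes lie inside them. Rsad2 held 1 core before its start, and the only core of Ifih1 lay 32 bases after it. A match of letters is a description and not a measured site.

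Nearly the whole group was at higher levels in Treg-origin cells than in conventional CD4 cells of the same libraries. Levels are shares of the UMIs of a class, and the median Treg-origin cell held fewer UMIs. The differences below are thus in share of RNA and not in molecules per cell. At an adjusted p of at most 0.05, 34 of the 35 genes were higher in Treg-origin cells and 1, Ifih1, was lower, against 21.4% of all 10770 genes tested called higher and 20.5% called lower. The median log2 difference of the 35 was 1.25, a 2.37-fold difference, while the median of all genes was 0.01. The same 34 to 1 split of signs was seen in each of the 4 libraries, with medians of 1.10, 1.20, 1.21 and 1.13 on log2(CPM + 1). In Treg-origin cells with more Cd4 than Cd8 RNA alone, 31 genes were higher and Ifih1 was lower, against 15.2% and 15.3% of all genes, with a median of 1.17.

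**Figure D1:**
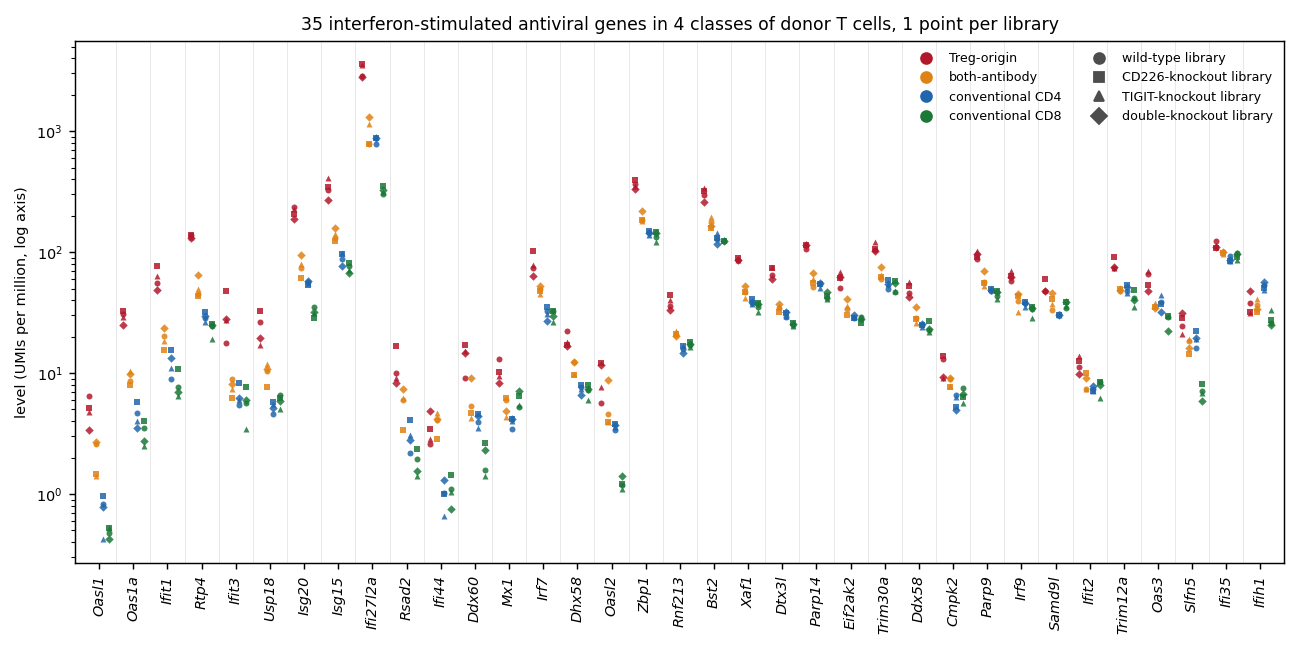
Level of each of the 35 genes (CPM, log axis) in 4 classes of donor T cells, with 1 point per library and genes ordered by their fitted difference between Treg-origin and conventional CD4 cells. In each library the red Treg-origin point lies above the blue conventional CD4 point for 34 genes, and below it for Ifih1 at the right end.

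Among genes of RNA binding and nucleotide chemistry, all 5 of the IFIT and viperin group were higher in Treg-origin cells. Ifit1, which binds RNA whose cap lacks the host's methyl marks (chr19:34640889-34650009), stood at 55.9, 77.3, 63.0 and 48.8 CPM in Treg-origin cells, and at 8.88, 15.5, 11.02 and 13.2 CPM in conventional CD4 cells. Every Treg-origin library was above every conventional one, and the fitted difference was 5.05-fold (log2 2.34, adjusted p = 7.26e-09, SD of the 4 within-library log2 ratios 0.31). Ifit3, a partner of Ifit1, had 17.8, 48.1, 27.7 and 27.8 CPM against 5.40, 8.27, 5.94 and 6.21 CPM, again without overlap (log2 2.17, adjusted p = 1.46e-07). Its reads cannot be fully separated from those of the near copy Ifit3b. Rsad2 (viperin, which makes a chain-terminating nucleotide) was 3.58-fold higher, and Cmpk2, a nucleotide kinase, and Ifit2 were 1.93-fold and 1.59-fold higher.

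The oligoadenylate synthetase family, whose products make the messenger that switches on the ribonuclease RNase L, held the genes with the greatest differences of the 35. Oas1a (chr5:120896256-120907544) was at 30.8, 32.6, 29.1 and 24.9 CPM in Treg-origin and at 4.65, 5.81, 3.996 and 3.54 CPM in conventional CD4 cells, a 6.53-fold difference with no overlap (adjusted p = 1.03e-08). Oasl1, a relative without that activity that in mice lowers translation of Irf7, was scarce, at 6.51, 5.15, 4.78 and 3.42 CPM against 0.820, 0.968, 0.427 and 0.786 CPM (6.61-fold, adjusted p = 2.66e-05). The remaining members, Oasl2 and Oas3, differed by log2 1.31 and 0.62. Oas1a can share reads with Oas1g.

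Of 6 sensors of nucleic acid, 5 were higher and 1 was lower. Zbp1, which binds left-handed nucleic acid, was 2.47-fold higher, Ddx58 (RIG-I, a sensor of viral RNA ends) 1.96-fold, Eif2ak2 (PKR, a kinase that stops translation on double-stranded RNA) 2.06-fold, Dhx58 2.48-fold and the helicase Ddx60 3.35-fold. Ifih1, the sensor of long double-stranded RNA also called MDA5 (chr2:62595618-62646255), was the exception. It had 38.2, 32.0, 31.5 and 47.3 CPM in Treg-origin cells and 53.4, 50.5, 48.5 and 56.1 CPM in conventional CD4 cells. No library of one class reached the other, and the difference was 1.41-fold in favour of conventional CD4 cells (log2 -0.50, adjusted p = 0.000211).

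All 8 genes of the ISG15 system and of the ubiquitin and ADP-ribose enzymes were higher. Isg15, a ubiquitin-like protein joined to other proteins (chr4:156199424-156200818), had 326, 349, 409 and 270 CPM in Treg-origin and 87.6, 96.6, 98.0 and 76.3 CPM in conventional CD4 cells (3.73-fold, adjusted p = 4.45e-11). Usp18, which removes ISG15 and also restrains the type I interferon receptor (chr6:121245906-121270917), had 26.5, 32.6, 17.2 and 19.5 CPM against 4.61, 5.81, 5.59 and 5.19 CPM (4.43-fold, adjusted p = 8.12e-07). For both genes the 4 Treg-origin libraries lay above all conventional ones. Parp9 and Dtx3l, partners in one enzyme complex, differed by log2 0.93 and 1.15. They share 458 exon bases on opposite strands, and whether counting used strand was not given in the sources used here.

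All 3 transcription regulators and partners were higher. Irf7, which drives interferon genes (chr7:141263183-141266499), was at 74.2, 101, 78.3 and 63.9 CPM against 32.3, 35.3, 30.6 and 27.003 CPM (log2 1.32, adjusted p = 7.22e-09). Irf9, the DNA-binding part of the complex that type I interferon activates, was 1.68-fold higher and Ifi35 1.29-fold. Irf9 shares 123 exon bases with Rnf31 on the same strand.

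The other 9 effectors were all higher too. Isg20, an RNA exonuclease (chr7:78913396-78920396), had 236, 208, 228 and 188 CPM in Treg-origin and 56.2, 53.1, 55.6 and 58.0 CPM in conventional CD4 cells (3.82-fold, adjusted p = 3.54e-10). Rtp4 (chr16:23520219-23614222) had 138, 139, 133 and 130 CPM against 28.7, 31.9, 26.5 and 29.5 CPM (4.61-fold, adjusted p = 9.08e-12), again with no overlap. Ifi27l2a, a small interferon-induced protein, had 2857, 3563, 3533 and 2800 CPM against 778, 879, 890 and 883 CPM (3.67-fold, adjusted p = 9.08e-12). Bst2 (tetherin, which holds budding virus at the membrane) was 2.30-fold higher. Because Ifi27l2a gives a large share of the UMIs of the group, sums below are over the other 34 genes.

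**Figure D2:**
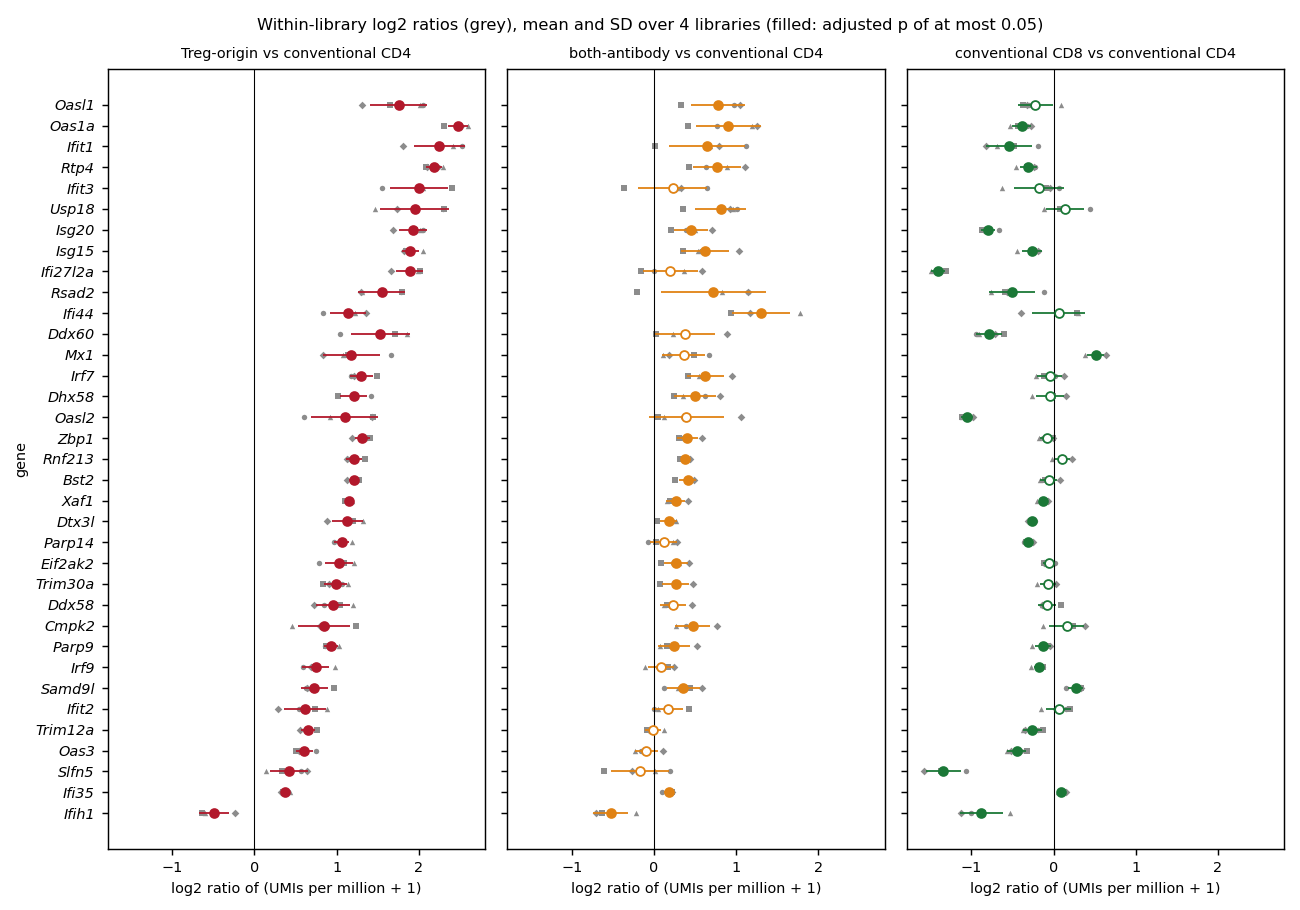
Log2 ratio of levels (CPM plus 1) for each gene within each library (grey; symbols as in the plot of levels), with the mean and SD over 4 libraries in colour and filled circles where the adjusted p was at most 0.05. The ratios run from above 2 to below 0 for Treg-origin over conventional CD4 cells, are closer to 0 for most genes in both-antibody cells, where the mean ratio of Ifi44 is above that of Treg-origin cells, and lie mostly at or under 0 for conventional CD8 cells.

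The rest of the interferon pathway was read from other lists. No UMI of Ifnb1, of 4 Ifna genes or of the other 4 ligands listed beside Ifng was found in Treg-origin or conventional CD4 cells, which (3 UMIs per library, counting error only) allows up to 1.72 CPM in the shallowest library of Treg-origin and 0.118 CPM in that of conventional CD4 cells. Ifng itself was at 82.4, 58.4, 58.7 and 133 CPM in Treg-origin and 258, 286, 249 and 289 CPM in conventional CD4 cells (log2 -1.75, adjusted p = 4.43e-07). Of 21 receptors, kinases, STATs and regulators, 14 were higher in Treg-origin cells and 3 lower, against 21.4% and 20.5% of all genes, so the count of lower genes was under the background. The 3 greatest differences up were Ifngr2, a chain of the interferon-gamma receptor (7.01 against 0.919 CPM, log2 2.90), the feedback inhibitor Socs3 (log2 1.64) and Stat2 (24.4 against 8.65 CPM, log2 1.48). The 3 lower ones were the phosphatases Ptpn6 (log2 -0.91) and Ptpn11 (log2 -0.55) and the factor Irf8 (log2 -0.57). Irf1, Jak2 and both type I receptor chains, Ifnar1 and Ifnar2, were among the genes that were higher.

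All 14 GTPases that interferon-gamma induces were higher in Treg-origin cells, with a median log2 difference of 1.61. Iigp1 was at 222, 220, 195 and 194 CPM against 15.2, 16.9, 17.4 and 15.4 CPM (log2 3.67, adjusted p = 1.72e-12), followed by Tgtp2 (log2 2.60) and Tgtp1 (log2 2.23). Of 49 other interferon-stimulated genes tested, 43 were higher and 4 lower, against 21.4% and 20.5% of all genes, with a median of 0.69. Ifi208 (log2 3.56), Ifit1bl1 (log2 3.41) and Oas2 (log2 2.94) led the higher ones. Among the 4 lower were Ifitm1 at 490 against 1584 CPM (log2 -1.73), Ifi204 (log2 -0.83) and Ifitm2 (log2 -0.47), and their number was under the background. Of 8 adaptors of nucleic acid sensing tested, 4 were higher and none lower, against 21.4% and 20.5% of all genes, Tmem173 (STING) the most at log2 0.81, with 4 at an unadjusted p under 0.05.

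Proliferation RNA and depth moved with the class, and the difference was smaller in cells restricted by either. The 8 proliferation genes summed to 1398 to 1988 CPM in Treg-origin and 2581 to 2918 CPM in conventional CD4 cells. Within conventional CD4 cells, those without a UMI of these 8 genes had 2005 to 2257 CPM of the 34 antiviral genes, and those with one had 1053 to 1107 CPM, so the cells without were higher in every library. The cells without were also shallower, with medians of 4025 to 5124 UMIs against 7724 to 9840. Among Treg-origin cells the same split gave 3216 to 4342 CPM and 2208 to 2650 CPM. The medians there were 2726 to 3994 and 4906 to 6725 UMIs. The part of depth in this split was not tested. In cells without a proliferation UMI alone, 20 of 33 genes tested were higher in Treg-origin cells, against 10.4% of all genes. The median log2 difference was 0.66, and this setting was chosen after the data were seen. In cells of 3000 to 6000 UMIs, also chosen afterwards, 28 of 33 were higher, against 11.3% of all genes, with a median of 0.83.

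Most single genes differed less under these restrictions, but not all. Ifi35 went from log2 0.37 in all cells to 0.41 without a proliferation UMI and 0.48 at 3000 to 6000 UMIs, and without a proliferation UMI Ifit2 went from 0.67 to 0.74 and Samd9l from 0.73 to 0.74. In cells without a proliferation UMI, Oas1a was at log2 1.75 (adjusted p = 1.08e-06), Isg20 at 1.12, Ifit1 at 1.09, Usp18 at 1.06, Isg15 at 1.06, Rtp4 at 1.04 and Irf7 at 0.61. Rsad2 was at 0.10 and Oasl2 at 0.02, neither past the threshold. The difference of Ifih1 was -0.03 there and -0.09 in cells of 3000 to 6000 UMIs, and it was called in neither. Slfn5, of the Schlafen family, turned from log2 0.44 in all cells to -0.77 and -0.50 in the restricted sets, past the threshold each time, and was the single gene of the 35 called lower there, against 9.60% and 8.81% of all genes. In Treg-origin cells with more Cd4 RNA and no proliferation UMI, 16 of 31 genes tested were higher, against 6.30% of all genes. Oasl1 and Ifi44 were too scarce to be tested in the restricted sets of all Treg-origin cells.

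**Figure D3:**
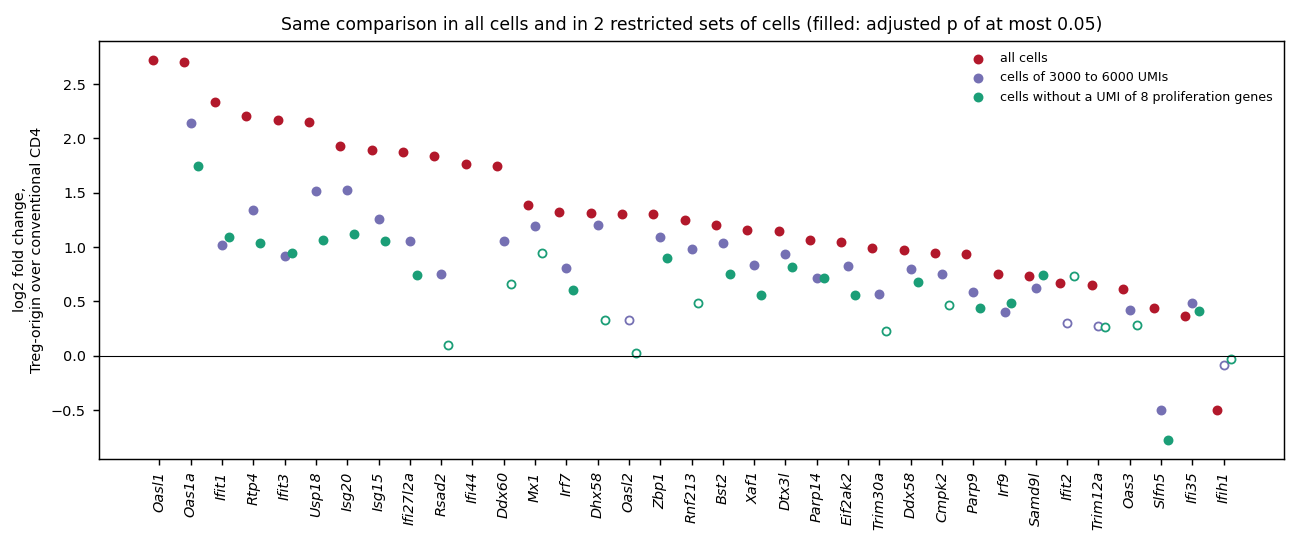
Fitted log2 difference between Treg-origin and conventional CD4 cells for each gene in all cells (red), in cells of 3000 to 6000 UMIs (purple) and in cells without a UMI of 8 proliferation genes (green), filled where the adjusted p was at most 0.05. The median falls from 1.25 to 0.83 and 0.66, Slfn5 changes sign, and Oasl1 and Ifi44 have no value in the restricted sets.

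Markers of other cell types also differed between libraries. Neutrophil markers summed to 1796, 4.58, 1672 and 3.90 CPM in Treg-origin cells by library, and the median log2 differences of the 35 genes from conventional CD4 cells were 1.10, 1.20, 1.21 and 1.13 in the same libraries. Plasma cell markers reached 2379 CPM and erythroid markers 997 CPM in the CD226-knockout library and at most 305 and 43.4 CPM in the others. Macrophage and monocyte markers summed to 45.9 to 197 CPM in Treg-origin and 49.1 to 68.5 CPM in conventional CD4 cells. Leaving out cells with 3 or more markers of any 1 other cell type kept 34 higher and 1 lower. This removed 2.66% to 7.23% of Treg-origin cells per library and kept cells with fewer such markers. The part of macrophage and monocyte RNA by itself was not tested.

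The difference was spread over the cells. Each cell was thinned to 2000 UMIs, leaving out 14, 17, 57 and 22 shallower Treg-origin cells. The mean Treg-origin cell then held 5.98, 6.81, 6.14 and 5.78 UMIs of the 34 genes and the mean conventional CD4 cell 2.62, 2.78, 2.67 and 2.58. At least 10 such UMIs were found in 15.6% to 17.5% of Treg-origin and 2.30% to 3.66% of conventional CD4 cells, and no such UMI in 2.22% to 3.12% and 14.2% to 16.3%. Single genes were less even: in Treg-origin cells the 5 cells richest in Ifit3 held 35.1% to 53.6% of its UMIs, and the 5 richest in Zbp1 at most 6.95%. Treg-origin cells with a Foxp3 UMI had 2525, 2679, 2625 and 2766 CPM of the 34 genes by library, and those without had 2730, 2965, 2911 and 2361 CPM. Cells without a Foxp3 UMI were thus higher in every library but the double-knockout, where they were lower. They were also shallower in every library, with medians of 3847 to 5161 UMIs against 4231 to 6108. A cell without a Foxp3 UMI need not lack Foxp3 RNA, and the part of depth was not tested.

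**Figure D4:**
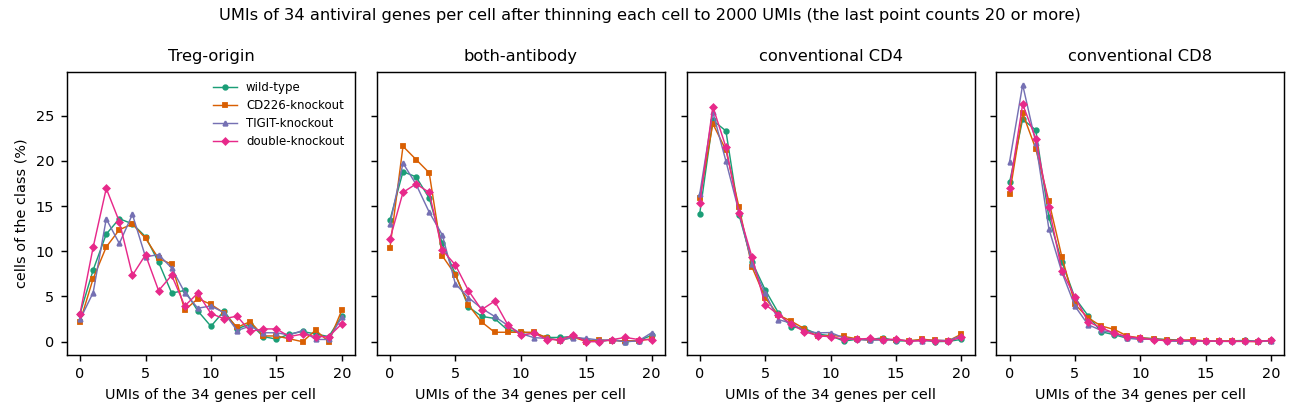
Share of cells of a class (%) by number of UMIs of the 34 genes after thinning each cell to 2000 UMIs, 1 line per library, the last point counting 20 or more. Treg-origin lines peak at 2 to 4 UMIs with a long right side, and conventional lines peak at 1 UMI.

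Both-antibody cells lay between the classes in summed level, and they were of mixed make-up. Xist stood at 143 to 252 CPM there, and 4 Y-linked genes together at 74.3 to 93.0 CPM. The averages were 714 and 4.62 CPM in Treg-origin cells, and 0.686 and 132 CPM in conventional CD4 cells. Cells with more Cd8 RNA were 36.5% to 54.0% of the class. Whether a mixture of cells gives the level between was not tested. The 34 genes summed to 1351 to 1598 CPM there, above all conventional CD4 values (1132 to 1195 CPM) and below all Treg-origin values (2467 to 2883 CPM). Against conventional CD4 cells, 22 of 35 genes were higher, against 9.06% of all genes, and Ifih1 was lower, with 7.22% of all genes lower and a median log2 difference of 0.38. The comparisons with conventional CD4 cells use the same conventional CD4 sums, so their results are not independent.

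Ifi44 led the both-antibody differences, at 4.08, 2.83, 4.68 and 4.16 CPM against 1.03, 1.003, 0.659 and 1.30 CPM (log2 1.99, adjusted p = 4.56e-05), with no overlap. Oasl1 (log2 1.39), Oas1a (log2 0.99) and Usp18 (log2 0.91) followed. Rsad2 had 6.01, 3.39, 6.20 and 7.35 CPM against 2.19, 4.08, 3.06 and 2.79 CPM (log2 0.87, adjusted p = 0.0208), and its CD226-knockout value fell inside the conventional range. In cells without a proliferation UMI 4 of 33 genes tested were called higher, against 3.39% of all genes, and in cells of 3000 to 6000 UMIs 5 of 33, against 3.07%. Both-antibody cells with at least 3 markers of another cell type were 17.7% to 22.1% of the class, and neutrophil markers summed to 1079 to 7715 CPM in it. Without those cells the 34 genes stood at 1354 to 1585 CPM.

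Treg-origin cells exceeded both-antibody cells in 32 of 35 genes, against 19.0% of all genes, with a median of 0.80 and none lower (19.2% of all genes were lower, and 33 of the 35 had an unadjusted p under 0.05). Ifit3 differed most (30.3 against 7.69 CPM, log2 1.93), followed by Ifi27l2a and Oas1a (log2 1.68 each), Ifit1 (log2 1.67) and Isg20 (log2 1.49). Ifih1 (37.3 against 36.0 CPM), Ifi44 (3.45 against 3.94 CPM) and Cmpk2 (11.3 against 8.37 CPM) did not pass the threshold. In cells without a proliferation UMI 8 of 28 genes tested were called higher, against 4.88% of all genes, and in cells of 3000 to 6000 UMIs 19 of 29, against 6.28%.

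Conventional CD8 cells had the lowest sum, 953 to 1067 CPM, below every conventional CD4 library. Against conventional CD4 cells 18 genes were lower, with 23.7% of all genes lower, and 3 were higher, with 22.8% of all genes higher, so the count of higher genes was under the background and the median log2 difference was -0.17. Oasl2 and Slfn5 differed most. Oasl2 was at 1.20, 1.22, 1.11 and 1.40 CPM in CD8 and 3.38, 3.80, 3.57 and 3.73 CPM in CD4 cells (2.91-fold, adjusted p = 1.14e-06). Slfn5 was at 7.17, 8.09, 6.80 and 5.91 CPM against 16.1, 22.4, 19.0 and 19.6 CPM (2.74-fold, adjusted p = 5.01e-08). Both showed no overlap.

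Ifi27l2a was at 302, 355, 315 and 324 CPM in CD8 cells, all under the 778 to 890 CPM of CD4 cells (2.63-fold). Ddx60 (2.06-fold) and Ifih1 (28.0 against 52.1 CPM, 1.86-fold) were lower too. The 3 genes higher in CD8 cells were Mx1 at 5.26, 6.42, 5.50 and 7.09 CPM against 3.42, 4.15, 3.996 and 4.21 CPM (log2 0.63, adjusted p = 4.47e-05), Samd9l, which restricts poxviruses (log2 0.29), and Ifi35 (log2 0.11). Mx1 encodes a GTPase against influenza virus whose gene is defective in C57BL/6 and most inbred strains. In cells without a proliferation UMI 6 of 33 genes tested were called lower, against 5.12% of all genes, and the median turned to 0.036. Only 70 to 161 conventional CD8 cells per library were of that kind.

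Genotypes of the Treg donor were compared by values, with 1 library each and no test. The intervals below are exact and cover counting error only. Summed over the 34 genes, Treg-origin cells held 2671 CPM in the wild-type library, 2883 CPM in the CD226-knockout, 2859 CPM in the TIGIT-knockout and 2467 CPM in the double-knockout library. The double-knockout value was the lowest, and all 4 lay above those of every other class. The labels put the wild-type and CD226-knockout libraries on sequencing lane 3 and the other pair on lane 4, so TIGIT status and lane cannot be told apart.

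Loss of CD226 went with a ratio of 1.08 [1.04, 1.12] where TIGIT was present and 0.863 [0.831, 0.896] where it was absent. Of 33 genes at a mean of at least 5 CPM, 27 and 7 were higher, against 47.9% and 49.9% of all genes. Loss of TIGIT gave 1.07 [1.03, 1.11] with CD226 present and 0.856 [0.823, 0.890] with it absent, and 19 and 5 genes were higher, against 53.6% and 53.8% of all genes. In Treg-origin cells with more Cd4 RNA, TIGIT loss with CD226 present lay on the other side of 1, at 0.920 [0.874, 0.969]. Loss of both gave 0.924 [0.890, 0.959], with 10 genes higher against 53.2% of all genes. In cells of 3000 to 6000 UMIs the log2 ratio for CD226 loss without TIGIT turned from -0.21 to 0.024, and that for TIGIT loss with CD226 present from 0.10 to -0.12. Conventional cells were wild-type in all libraries. In all cells their 5 ratios ran from 0.947 to 1.04 for CD4 and from 0.938 to 1.07 for CD8. The greatest, 1.07 [1.05, 1.09] in CD8 cells for CD226 loss with TIGIT absent, was close to the Treg-origin ratios of 1.07 and 1.08. Ratios of that size thus also stood between libraries in cells of 1 genotype, while 0.856, 0.863 and 0.924 lay below the CD4 and CD8 ranges. Those ranges leave out conventional cells called neither CD4 nor CD8, which are wild-type too. These held 1254, 1369, 1192 and 1250 CPM by library, a wider spread than that of conventional CD4 cells. Whether any Treg-origin ratio goes beyond the spread between libraries was not tested.

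**Figure D5:**
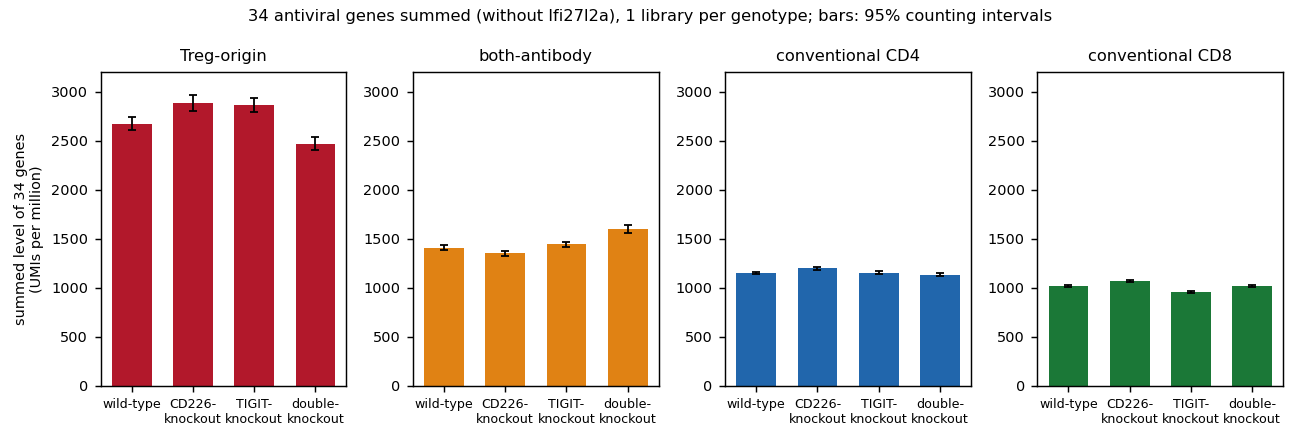
Summed level of the 34 genes (CPM, axes from 0) in each class by genotype of the Treg donor, 1 library per bar, with 95% counting intervals that hold no variation between animals. Treg-origin bars stand at 2467 to 2883, and the other classes at 953 to 1598.

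Between genotypes the genes did not move as one. In the library with CD226 loss and TIGIT present, the intervals of 6 genes lay above 1 (5.11% of all genes) and of none below (5.77% of all genes), and Ifit3 had the greatest ratio, 2.70 [1.84, 4.03], from 84 UMIs against 41. With TIGIT absent, 1 gene lay above (5.83% of all genes) and 5 below (6.35% of all genes), among them Isg15 at 0.661 [0.593, 0.736]. Loss of TIGIT with CD226 present put 5 genes above 1 (5.49% of all genes) and 1 below (4.18% of all genes), and loss of both put 2 above (5.62% of all genes) and 4 below (4.97% of all genes). Loss of TIGIT in cells without CD226 put 9 genes below 1 (4.85% of all genes), including Ifit1 at 0.632 [0.483, 0.824] and Irf7 at 0.631 [0.4996, 0.796]. Ifih1 was the single gene above 1 in that contrast (6.59% of all genes), at 1.48 [1.05, 2.09], and also the single one for CD226 loss with TIGIT absent, at 1.502 [1.09, 2.09].

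Usp18 was the only one of the 35 genes at 20 CPM or more whose interval left out 1 in the same direction in both contrasts of one receptor, being lower with TIGIT loss. How many of all genes meet this rule was not counted, so it is not known whether 1 gene is more than the background. In conventional CD4 cells, which carry TIGIT in every library, Usp18 ranged from 4.61 to 5.81 CPM. Its Treg-origin over conventional CD4 difference was log2 0.76 smaller in the libraries without TIGIT, with an unadjusted p of 0.0119 and an adjusted p of 0.761 over all genes, which is not past the threshold. Across the 35 genes, no difference between Treg-origin and conventional CD4 cells changed with CD226 or with TIGIT status at an adjusted p of at most 0.05 by edgeR, with 2 and 1 genes at an unadjusted p under 0.05, and DESeq2 also called none. The terms called 0.186% and 0.139% of all genes. Each compares 2 libraries with 2 and leaves 1 residual degree of freedom.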

How the data were processed

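RNA and antibody tags of spleen donor T cells were counted with the 10x Chromium 3' v3 chemistry and TotalSeq antibodies, per the labels' protocols. The authors deposited UMI counts per gene and cell, 1 matrix per library, made with Cell Ranger 3.1.0 on mm10, per the submitters' processing notes. No replicates were pooled after counting, while donor T cells of 3 were pooled before, per the series' design text. Cells needed 500 genes or more and no more than 10% of UMIs from mitochondria, which kept 7654 to 10383 per library. No doublet caller was run. Counts were summed per class and library (1747477 to 2305761 UMIs for Treg-origin cells) and tested with edgeR 4.0.16 (R 4.3.3): quasi-likelihood F-test, TMM, filterByExpr, Benjamini-Hochberg over all genes. Classes of 1 library come from the same pool, so library was a block. Cd226, Tigit, Cd4, Cd8a and Cd8b1 got no calls. Classes differ by the cells' source, and p-values measure the spread over 4 libraries. Genotype ratios use a pseudocount of 1 CPM for log2 values and exact 95% intervals. The script was tested on simulated data. Alternatives were DESeq2 1.42.0, other filters, cutoffs and thinning. Genes given by library were the 5 called genes with the greatest fold in each direction per comparison, genes with a like ratio in both contrasts of a receptor, and Isg15, Usp18, Irf7 and Isg20; others are examples chosen with values known. Members and lists were chosen with earlier results of these data known. Of the list of 53 other interferon-stimulated genes, Oas1b and Mx2 were not analysed here.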

Additional observations from a re-analysis of the deposited data

Results flagged for a closer look

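Of 175 sets of 4 within-library log2 ratios (CPM + 1), 10 held a library far from the other 3 by Dixon's gap test. Chance gives such a gap in about 1 in 20 sets. For Treg-origin over conventional CD4 cells, Samd9l was at 0.97 in the CD226-knockout library. With Treg-origin cells of more Cd4 RNA alone, Bst2 (1.01) and Dtx3l (0.93) were low in the double-knockout and Trim30a (1.18) was high in the wild-type library. For conventional CD8 over CD4 cells, Oasl1 was high in the TIGIT-knockout (0.092) and Ddx58 in the CD226-knockout library (0.088). For both-antibody over conventional CD4 cells, Usp18 was low in the CD226-knockout (0.35) and Ifi35 in the wild-type library (0.094). For Treg-origin over both-antibody cells, Irf9 was high in the TIGIT-knockout (1.09) and Dhx58 low in the double-knockout library (0.41).

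The summed 34 genes moved in opposite directions with the same loss in all Treg-origin cells, but not under every restriction. For CD226 loss the Treg-origin ratio was 1.08 next to intact TIGIT and 0.863 next to deleted TIGIT. For TIGIT loss it was 1.07 next to intact CD226 and 0.856 next to deleted CD226. With 1 library per genotype, neither difference was tested. In cells of 3000 to 6000 UMIs the log2 ratios were 0.031 and 0.024 for CD226 loss and -0.12 and -0.13 for TIGIT loss, each pair of 1 sign. In Treg-origin cells with more Cd4 RNA, TIGIT loss gave 0.920 and 0.747, both lower.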

How the results depend on the processing

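The cause of the changes below was not tested. Fewer than the 35 genes were tested in cells without a proliferation UMI and in cells of 3000 to 6000 UMIs, as given above. Changes of sign are given for genes past the threshold in all cells or under that setting, and genes past it in neither are left out. Between Treg-origin and conventional CD4 cells, 1 of the 35 genes changed direction: Slfn5 was at -0.77 in cells without a proliferation UMI and -0.50 in cells of 3000 to 6000 UMIs. The count higher was 20 in cells without a proliferation UMI, and the count lower was 0 after thinning; the median ran from 0.66 to 1.36 over all settings. In Treg-origin cells of more Cd4 RNA the count higher was 16 in cells without a proliferation UMI (Slfn5 -0.88), and the count lower was 0 under stricter antibody cutoffs, thinning, 3000 to 6000 UMIs (Ifih1 0.11) and lane 4 alone. For CD8 against CD4 cells, genes higher were 6 under stricter antibody cutoffs, 5 under the stricter cell filter and 1 after thinning. In cells without a proliferation UMI 6 were lower, the median was 0.036, and Oas1a (0.22), Irf9 (0.036), Rtp4 (0.29), Zbp1 (0.33), Trim30a (0.34), Trim12a (0.067), Parp9 (0.068), Dtx3l (0.25) and Xaf1 (0.088) turned positive, as did Zbp1 (0.19) and Dtx3l (0.030) at 3000 to 6000 UMIs. For both-antibody against CD4 cells, genes higher were 11 after thinning, 4 without a proliferation UMI, 5 at 3000 to 6000 UMIs and 12 in lane 3 alone. Genes lower were 2 with no low-count filter and with the stricter cell filter, and 0 in both restricted sets, where Rsad2 (-0.094) and Xaf1 (-0.015) turned without a proliferation UMI and Ifit1 (-0.054) at 3000 to 6000 UMIs. For Treg-origin against both-antibody cells, 8 were higher without a proliferation UMI (Dhx58 -0.073, Samd9l -0.025, Slfn5 -0.37) and 19 at 3000 to 6000 UMIs (Slfn5 -0.089).

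Without the replicate block, where block means library, counts higher and lower were 34 and 1 for Treg-origin, 31 and 1 for Treg-origin of more Cd4 RNA, 2 and 14 for CD8, and 18 and 1 for both-antibody, each against conventional CD4 cells, and 32 and 0 for Treg-origin against both-antibody cells. Leaving out 1 library gave 33 to 34 higher and 1 lower for Treg-origin, 28 to 31 higher and 0 to 1 lower with more Cd4 RNA, 3 to 5 higher (5 without TIGIT-knockout) and 16 to 20 lower for CD8, 18 to 24 higher and 1 lower for both-antibody, and 28 to 32 higher against both-antibody cells. It could not be done for the tests by receptor status, which then have no residual degrees of freedom.

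For genotypes, the log2 ratio of the 34 genes in Treg-origin cells under CD226 loss with TIGIT present was 0.18 under stricter antibody cutoffs, 0.19 after thinning, 0.42 without a proliferation UMI and 0.031 at 3000 to 6000 UMIs. With TIGIT absent it was -0.27, -0.088, -0.13 and 0.024, and genes higher were 11 under the stricter cell filter, 16 after thinning, 16 without a proliferation UMI, 22 at 3000 to 6000 UMIs and 11 with more Cd4 RNA. Under TIGIT loss with CD226 present it was 0.036 under the stricter cell filter, 0.037 after thinning, -0.12 at 3000 to 6000 UMIs and -0.12 with more Cd4 RNA (10 genes higher). With CD226 absent it was -0.35 under stricter antibody cutoffs, -0.43 without a proliferation UMI (8 higher), -0.13 at 3000 to 6000 UMIs (9 higher) and -0.42 with more Cd4 RNA. Double loss gave -0.17 under stricter antibody cutoffs, -0.17 under the stricter cell filter, -0.051 after thinning, -0.013 without a proliferation UMI (19 higher) and -0.33 with more Cd4 RNA. In conventional CD4 cells, CD226 loss turned to -0.042 at 3000 to 6000 UMIs with TIGIT present, and with TIGIT absent to 0.0028 under stricter antibody cutoffs and 0.11 at 3000 to 6000 UMIs.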

Other observations

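Conventional cells that could not be called CD4 or CD8 from their RNA held 1254, 1369, 1192 and 1250 CPM of the 34 genes by library, in the order used above. In every library this was above both the CD4 and the CD8 value. Among both-antibody cells, those with more Cd4 RNA had 1560 to 1758 CPM and those with more Cd8 RNA 1077 to 1191 CPM. Conventional CD4 cells with a Foxp3 UMI, 19 to 42 cells per library, had 1271 to 2023 CPM. Of the 27 genes with a promoter entry, the 14 that held the core letters had a median log2 difference between Treg-origin and conventional CD4 cells of 1.12, and the 13 that did not a median of 1.15.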
